A study of Mus musculus with 10 samples.

Results

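The spinal cord of ICR mice was compared between 1 day after spinal cord injury and a sham operation, across every gene that the array annotation names by a single symbol. ICR is an outbred laboratory stock, and all animals of both groups were labelled wild-type and 4 weeks old. The tissue was thoracic segment T10. The comparison was taken from the group labels alone, and it used 4 of the 10 deposited arrays: the sham and the 1 day array summarised per gene, and the sham and 1 day arrays summarised per exon probe set. The labels do not say whether both summaries come from the same hybridisations or the same pools. Of 23332 transcript clusters on the gene-level arrays, 14996 carried a single symbol, and 11280 genes were kept after a filter on low signals. Each group was RNA of 3 mice mixed in equal mass and read on 1 array, so no difference below has a test, a standard error over animals or a p-value. The labels give the sham group no time after surgery, and they state neither how the cord was injured nor the sex of the mice. With a single pool per group, the spread between mice cannot be told apart from the injury, and neither can anything else that differed between the pools.

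After a spinal cord injury, cut or crushed cells and leaking blood release signals that resident microglia and astrocytes detect through pattern-recognition and cytokine receptors. These cells make cytokines and chemokines, which call neutrophils and then monocytes out of the blood, while astrocytes change shape and begin a reactive gene programme. Neurons around the lesion lose synapses, and the barrier between blood and cord becomes leaky.

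Values are log2 signals as deposited, and a difference is the 1 day signal minus the sham signal, so that 1 on this scale is a 2-fold change. A gene is called higher or lower below where that difference was at least 2-fold, which is a rule of size and not a test. Of the 11280 genes, 427 (3.79%) were higher at 1 day and 461 (4.09%) were lower, and these shares are the background for counts of members as deposited. Counts under other settings have backgrounds of their own. With no filter 438 genes were higher and 472 lower of 14860, and with both signals at the filter level 321 and 410 of 10399. Centring the arrays gave 469 and 346 of 11280, quantile normalization 507 and 240 of 11280, and probe-set medians 461 and 628 of 11055. Measured members are those that passed the filter, and dim members that stayed dim are not among them, so counts and medians of lists with dim members lean towards the members that were bright somewhere. The median difference over all genes was -0.15, and 8631 genes (76.5%) lay within 1.5-fold of their sham signal. The rule has values close to its line on both sides. Among the genes nearest to it, Sertad1 and Chst11 lay just inside at 1.01 and 1.01, and Uck2 and Plbd1 just outside, both at 0.99. On the lower side Cap2 and Ankrd45 lay just inside and Siglech and Lypd6 just outside, with differences that were equal to 2 decimals.

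The higher and the lower genes had unlike shapes. The differences ran from -2.61 to 5.98, with a 1st percentile of -1.37 and a 99th of 2.28. At 4-fold or more there were 147 higher genes and 11 lower ones, and at 8-fold or more 55 higher genes and none lower. Genes below 0 were nevertheless the more numerous, 7466 against 3043 above 0. The typical higher gene went from a dim to a middling signal, with a median of 4.61 in sham and 6.63 at 1 day. The typical lower gene started brighter, at 6.81 in sham, and stood at 5.50 at 1 day. The sham signal of 106 higher genes lay below the filter level of 3.79, where signals are dim, and their fold changes depend on that dim value. The 1 day signal of 51 lower genes lay below it.

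Among kept genes the share of higher genes fell with the sham signal, and the filter sets part of that. A gene with a dim sham signal is kept only where another array is brighter, so the filter itself favours higher genes at the dim end. Among the 993 kept genes with a sham signal under 4, 13.9% were higher and 0.504% lower, but with no filter the group held 4573 genes, of which 3.26% were higher and 0.350% lower. Without the filter that share was largest between 4 and 5, at 6.06%, and it was 2.06% between 6 and 7. Between 7 and 8, where every gene passes, 1.03% were higher and 6.05% lower of 1933 genes. The median difference without the filter went from 0.00 under 4 to -0.30 among the 583 genes at 9 or above. Requiring both signals to reach the filter level left 321 higher and 410 lower genes, with higher genes at 43.9% of the calls. The plot of difference against sham signal shows the kept genes. Because the arrays differ in their distributions, the split depended on how they were scaled. Centring each array on its median gave 469 higher and 346 lower genes, and quantile normalization gave 507 and 240, so that higher genes made up 57.5% and 67.9% of the calls against 48.1% as deposited. The number of lower genes depended on the scaling more than the number of higher ones.

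**Figure D1:**
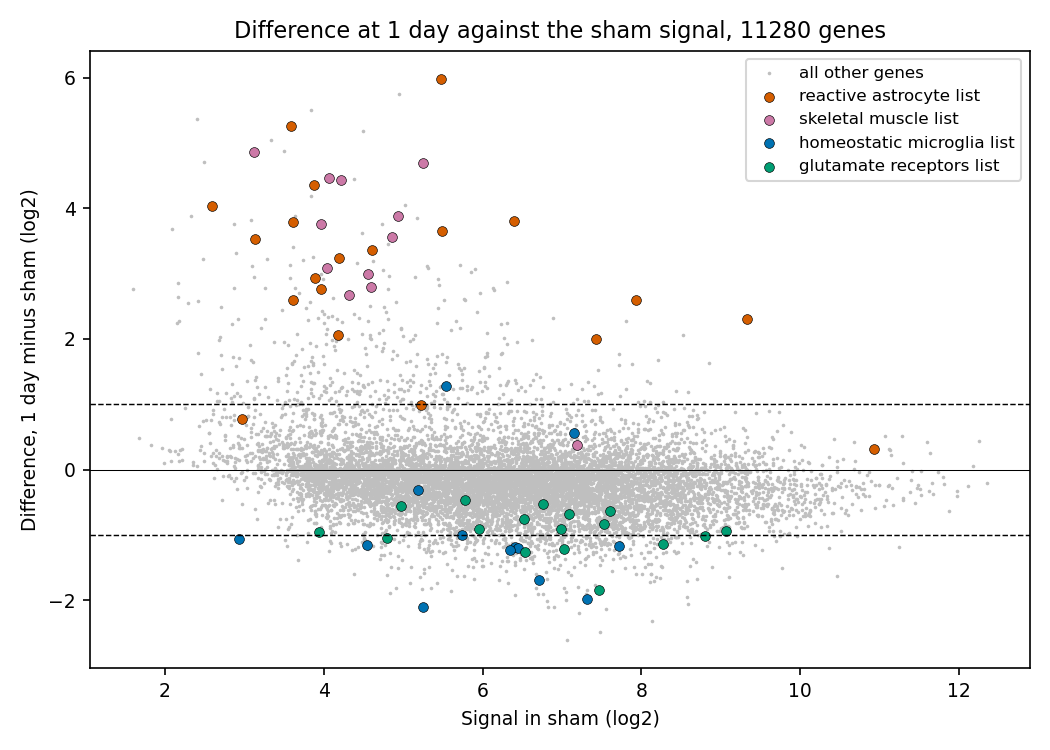
Each point is a gene, placed by its sham log2 signal and by its log2 difference at 1 day minus sham, with dashed lines at 2-fold and the members of 4 lists in colour. Of 11280 genes, 427 lie on or above the upper line, mostly at low sham signals, and 461 on or below the lower line, mostly at middling ones.

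The labelled tissue was checked against markers. Hox genes of the thoracic cord were measured in both pools, with Hoxc8 at 9.71 in sham and 9.15 at 1 day. Myelin basic protein (Mbp) gave 11.79 in sham and 11.67 at 1 day, the astrocyte filament gene Gfap 10.93 in sham and 11.24 at 1 day, and the synaptic protein gene Snap25 12.35 in sham and 12.15 at 1 day. Both arrays therefore carried the RNA of neurons, myelinating glia and astrocytes. Skeletal muscle genes stood out at 1 day and are described with the other tissues below.

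Genes switched on within hours of cell damage, the immediate early transcription factors, were higher in 10 of 23 measured members and lower in none, with a median difference of 0.79. Myc, a driver of growth and ribosome production, gave 4.82 in sham and 7.79 at 1 day, a difference of 2.96 (probe sets 3.06 ± 0.32, n = 4), where the values in brackets are the median, the SD and the number of exon-level probe sets of the gene. All probe sets of a gene were read on 1 exon-level array per group, so this spread describes probes and not animals. The AP-1 subunit genes Fos, Junb and Jun differed by 2.17, 1.55 and 1.30, and Fosl1, another Fos-family member, by 1.77. Other AP-1 subunit genes stayed within 2-fold, Fosl2 at 0.79 and Jund at 0.18. Several genes of the same class that neurons induce with activity did not share the rise either. Arc, which acts at active synapses, differed by -0.57, and the nuclear receptors Nr4a1, Nr4a2 and Nr4a3 by 0.03, -0.69 and 0.00. Egr1 differed by 0.61 and Egr3 by 0.05, but Egr2 was higher at 1.27. Among AP-1 and Egr genes, some members were above 2-fold and others within it. Arc and the Nr4a genes named were all within 2-fold.

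Brakes on growth-factor signalling were less changed. Of 16 dual-specificity phosphatases, Sproutys and related inhibitors, 2 were higher, namely Trib1 at 1.88 and Errfi1, an inhibitor of the EGF receptor, at 1.15. Dusp1 and Dusp6, which remove phosphate from MAP kinases, differed by 0.88 and 0.80. Dusp8 went the other way at -0.72.

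Receptors and signalling proteins of the interleukin-6 family and Stat3 were higher in 7 of 13 measured members and lower in none, with a median of 1.28. With no filter 8 of 16 were higher and the median was 0.80. Osmr, the oncostatin M receptor, had the largest difference of this list, from 4.61 in sham to 7.97 at 1 day (difference 3.36, probe sets 3.35 ± 0.63, n = 21). The cytokine gene Clcf1 and the feedback inhibitor gene Socs3 differed by 2.05 and 2.05, and Stat3 itself by 1.28. The shared receptor chain Il6st was near its sham level at 0.17, and Lifr, the leukaemia inhibitory factor receptor, stood at -0.57. The receptors of the family that take part in the same complexes thus went different ways, with Osmr higher and Il6st and Lifr not.

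The interleukin-1 and NF-kB pathway was higher in 11 of 22 measured members and lower in none, with a median of 1.00. With no filter 11 of 23 were higher and the median was 0.91. Where both signals had to reach the filter level, 6 of 16 were higher and the median was 0.69. The ligand genes Il1b and Il1a gave 3.11 in sham and 4.75 at 1 day, and 3.16 in sham and 4.42 at 1 day, respectively. Both started below the filter level. Their receptor Il1r1 differed by 2.32, the decoy receptor Il1r2 by 1.15, and the natural antagonist Il1rn by 2.49. Activators and antagonists of interleukin-1 were therefore higher in the same pool. Il33, an alarm cytokine held in the nuclei of glial cells, went from 7.80 to 10.07 (difference 2.27, probe sets 2.36 ± 0.28, n = 9). The adaptor Myd88 differed by 2.00 and the inhibitor of NF-kB Nfkbia by 1.09, while Il18 stood at -0.72.

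The TNF family had few members past 2-fold at gene level. Of 18 measured members 2 were higher and 14 lay above sham, with a median of 0.31. Over probe sets 4 of 18 were higher, with a median of 0.32. Tnfrsf12a, the receptor for TWEAK, went from 5.96 to 8.66, and Tnfrsf1a, the main TNF receptor, from 5.77 to 7.33. The cytokine gene Tnf itself differed by 0.37, with both signals dim (3.52 in sham and 3.89 at 1 day). Its single probe set differed by 1.19. A single reading at 1 day gives no account of the hours before it.

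Receptors for microbial and damage patterns were higher in 11 of 17 measured members, with a median of 1.66. The sham signal of 8 of these lay below the filter level. With no filter 11 of 19 were higher and the median was 1.41. Where both signals had to reach the level, 5 of 9 were higher and the median was 1.20. Cd14, which presents lipopolysaccharide to Tlr4, went from 3.64 to 7.52 (difference 3.89, probe sets 3.42 ± 0.99, n = 5). Tlr4 and its partner Ly96 differed by 1.75 and 1.77, Tlr13 by 2.31, Tlr7 by 1.66 and Tlr2 by 1.20. The C-type lectin receptors Clec5a, Clec4n, Clec7a, Clec4d and Clec4e, which myeloid cells carry, lay between 1.41 and 2.30. In contrast, Tlr3, which senses double-stranded RNA, stood at -0.76, and Tlr9, a sensor of DNA, at -0.25.

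Chemokines and their receptors were higher in 13 of 22 measured members and lower in 1, with a median of 1.45. The sham signal of 10 of these lay below the filter level. With no filter 13 of 25 were higher and the median was 1.06. Where both signals had to reach the level, 6 of 12 were higher and the median was 1.00. The monocyte attractant Ccl2 went from 4.48 to 8.10, Ccl7 from 4.62 to 7.82 and Ccl12 from 3.61 to 7.02. Ccl9 and the eosinophil attractant Ccl11 differed by 3.76 and 3.05. These Ccl genes lie in a cluster of related sequences, and probes for one may bind another, so their separate values are less certain than their shared direction. The neutrophil attractants Cxcl1 and Cxcl2 differed by 1.32 and 1.59, and their receptor Cxcr2 by 3.22. The single lower member was Cx3cl1, the neuronal ligand of the microglial receptor Cx3cr1, which went from 8.71 to 7.70, a difference of -1.01. It was no longer 2-fold lower after either rescaling. Chemokines of steady-state tissue, Cxcl12 and Cxcl14, stood at -0.52 and 0.00.

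Interferon-stimulated genes, the antiviral set that cells induce on sensing interferon, were above their sham signal in all 19 measured members and higher in 12, with a median of 1.28. The sham signal of 7 of these lay below the filter level, and dim members are kept only where an array is brighter. With no filter 12 of 22 were higher and the median was 1.24. Where both signals had to reach the level, 9 of 12 were higher. Ifit1, which binds foreign RNA, went from 2.87 to 6.64, a difference of 3.76 (probe sets 3.64 ± 0.17, n = 2). The guanylate-binding protein genes Gbp2 and Gbp3 differed by 2.64 and 1.87, and Irgm1, a GTPase acting against bacteria inside cells, by 2.50. The transcription factors Irf7 and Irf9 differed by 1.31 and 1.62, and their partner Stat2 by 0.05. Oas2 and the RNA sensor Dhx58 were near their sham signals at 0.18 and 0.19, both dim. Interferon-stimulated genes share sequence within families, which makes single members less certain.

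Promoters were read to describe motifs in the DNA of some higher members. The windows are 300 bases, from 250 before to 50 after the gene's start in the RefSeq annotation of GRCm38.p6, printed 5′ to 3′ on the strand of the gene. The 12 motifs searched, on both strands, and the genes shown were chosen after the values had been seen. Among the 12 higher interferon-stimulated genes with a promoter, 9 held the interferon-stimulated response element, spelt as GAAA and GAAA apart by any pair of bases, against 1 of 4 members that were not higher. Over all genes tested, 321 of 9052 promoters (3.55%) held it, and over all higher genes 27 of 326 (8.28%). In the whole interferon list 10 of 16 promoters held it. That list was made of genes that interferon induces, so a high share of this element was likely whatever the 1 day values. The contrast with members that were not higher rests on 4 promoters. In the first 4 windows below the capitals mark this element on either strand. Irgm1 holds a pair that overlap each other, and Ifit1 a pair that do not. A match is a description of letters and not of a bound factor.
Ifit1: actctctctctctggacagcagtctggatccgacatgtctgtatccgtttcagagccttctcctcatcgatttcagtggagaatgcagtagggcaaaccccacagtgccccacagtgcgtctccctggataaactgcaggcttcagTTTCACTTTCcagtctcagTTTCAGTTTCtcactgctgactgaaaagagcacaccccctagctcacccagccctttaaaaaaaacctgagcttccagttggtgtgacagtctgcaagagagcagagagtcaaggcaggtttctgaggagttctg
Gbp2: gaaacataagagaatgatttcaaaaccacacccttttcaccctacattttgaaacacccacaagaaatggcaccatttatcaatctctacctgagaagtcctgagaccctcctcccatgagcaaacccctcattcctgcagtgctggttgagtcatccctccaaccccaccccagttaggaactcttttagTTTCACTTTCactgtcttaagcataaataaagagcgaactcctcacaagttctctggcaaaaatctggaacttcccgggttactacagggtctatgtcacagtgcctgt
Irgm1: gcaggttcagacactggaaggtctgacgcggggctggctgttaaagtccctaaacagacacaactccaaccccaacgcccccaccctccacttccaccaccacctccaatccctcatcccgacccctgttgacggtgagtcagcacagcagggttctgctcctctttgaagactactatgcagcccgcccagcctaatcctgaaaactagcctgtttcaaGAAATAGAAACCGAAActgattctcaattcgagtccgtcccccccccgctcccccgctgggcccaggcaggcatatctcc
Rsad2: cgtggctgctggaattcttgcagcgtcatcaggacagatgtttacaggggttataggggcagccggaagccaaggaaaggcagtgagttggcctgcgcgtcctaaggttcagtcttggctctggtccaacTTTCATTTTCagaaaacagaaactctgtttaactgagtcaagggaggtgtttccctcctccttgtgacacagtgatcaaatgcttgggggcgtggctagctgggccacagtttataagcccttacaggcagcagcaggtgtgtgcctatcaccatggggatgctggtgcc
Ifit1 lies at chr19:34640639-34640938, plus strand, Gbp2 at chr3:142620413-142620712, plus strand, Irgm1 at chr11:48871371-48871670, minus strand, and Rsad2, which encodes the antiviral enzyme viperin and differed by 1.26, at chr12:26456403-26456702, minus strand.

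Sites for NF-kB, spelt as GGGAA, any 3 bases and CC, and for AP-1, spelt TGANTCA (N is any base), are shown for a pair of chemokine genes and for Emp1, a membrane protein gene of the reactive astrocyte list. Of promoters of all genes tested, 7.93% held the first and 6.53% the second, and of the 326 higher genes with a promoter 40 (12.3%) and 44 (13.5%). Among the lower genes the shares were 6.25% and 4.62%. Other motifs searched went either way. The antioxidant response element (TGACNNNGC) stood in 15.6% of higher genes with a promoter and 16.7% of all, and the STAT motif (TTCCNGGAA) in 1.84% and 1.44%. The glucocorticoid response element (ACANNNTGT) stood in 8.90% against 5.31%. The E-box (CANNTG) stood in 75.8% of higher and 76.1% of lower genes, against 68.7% of all. In the windows below, the capitals mark both motifs in Cxcl10, where a pair of NF-kB matches stand before an AP-1 match, NF-kB in Cxcl2, where the match reads on both strands and the copies overlap, and AP-1 in Emp1. The Cxcl10 window also holds a match to the interferon-stimulated response element, before the first NF-kB match. It is left in lower case because only NF-kB and AP-1 are marked in these windows.
Cxcl10: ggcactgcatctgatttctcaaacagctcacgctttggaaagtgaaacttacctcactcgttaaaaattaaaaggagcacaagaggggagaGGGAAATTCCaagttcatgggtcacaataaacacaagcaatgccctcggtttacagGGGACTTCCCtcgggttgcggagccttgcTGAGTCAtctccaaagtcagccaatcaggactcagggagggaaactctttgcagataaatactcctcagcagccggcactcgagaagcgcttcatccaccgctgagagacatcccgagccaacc
Cxcl2: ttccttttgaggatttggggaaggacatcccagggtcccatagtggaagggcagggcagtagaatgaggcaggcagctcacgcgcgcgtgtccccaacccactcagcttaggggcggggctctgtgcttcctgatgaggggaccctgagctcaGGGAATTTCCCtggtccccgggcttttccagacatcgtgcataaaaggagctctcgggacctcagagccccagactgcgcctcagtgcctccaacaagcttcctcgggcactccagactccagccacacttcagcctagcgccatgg
Emp1: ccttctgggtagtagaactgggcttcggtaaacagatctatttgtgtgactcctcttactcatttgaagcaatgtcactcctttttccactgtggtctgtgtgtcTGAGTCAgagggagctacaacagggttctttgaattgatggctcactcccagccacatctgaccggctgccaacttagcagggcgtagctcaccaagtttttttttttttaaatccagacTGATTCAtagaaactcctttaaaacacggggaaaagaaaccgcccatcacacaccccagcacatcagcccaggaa
Cxcl10 lies at chr5:92348840-92349139, minus strand, Cxcl2 at chr5:90903649-90903948, plus strand, and Emp1 at chr6:135362681-135362980, plus strand. Their differences were 3.79, 1.59 and 3.64. Cxcl10, which draws T cells, went from 3.62 to 7.41, and Emp1 from 5.49 to 9.14.

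Markers of monocytes and macrophages were higher in 16 of 21 measured members and lower in none, with a median of 1.75 and a summed linear signal of 428 in sham and 2294 at 1 day. The sham signal of 12 of these lay below the filter level. With no filter the list had the same members, count and median, and where both signals had to reach the level 6 of 9 were higher. Lgals3, a lectin of activated phagocytes, went from 4.39 to 8.84 (difference 4.46, probe sets 4.49 ± 1.46, n = 8), and the arginine-degrading enzyme Arg1 from 3.84 to 8.03 (difference 4.19, probe sets 4.49 ± 1.95, n = 10). The lipid scavenger receptor Cd36 went from 2.33 to 6.20, and the lysosomal marker Cd68 from 5.51 to 8.11. Receptors of resident or settled macrophages were different: Mrc1 differed by 0.60 and Cd163 by -0.09. In a whole piece of tissue, more or fewer cells of a type and more or less RNA per cell cannot be told apart, and this holds for every cell type below. In the Ms4a family 3 were higher and 0 lower of 4, Ms4a6d from 2.09 to 5.77 and Ms4a6c from 3.17 to 6.68. Both of these were below the filter level in sham and were kept only because another array was brighter. The filter favours such higher members, and the shares of this family without it were not computed. The close sequences of the family make the separate values uncertain.

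Neutrophil markers split. Of 15 measured members 6 were higher and none lower, yet the median was only 0.24. Retnlg went from 3.87 to 7.13, the chemokine receptor Cxcr2 from 3.29 to 6.51, and the calcium-binding alarm proteins S100a9 and S100a8 differed by 2.93 and 2.16. The largest member was Lcn2, a granule protein gene that reactive astrocytes also express, from 5.48 to 11.46. Other granule protein genes were near sham: Mpo differed by 0.07, Elane by -0.01, Camp by 0.17, Ltf by 0.22 and Ngp by -0.64. Mmp9 had an identical signal of 5.62 on both arrays. Mmp8 was at 0.24 with both signals dim, but its probe sets gave 1.61 ± 1.22, n = 9. The exon-level median of the list was 1.40, well above the gene-level one, so the size of the list's shift depends on how probes are summarised.

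Lymphocyte markers were dim or near sham. Of 9 T cell and natural killer cell markers 1 was higher, the interleukin-7 receptor Il7r at 1.45, and the T cell receptor chains Cd3e and Cd3g were below the filter level on both arrays. The B cell markers measured were Pax5 and Cd79b, at 0.06 and 0.00. Kit, the single measured mast cell marker, stood at -0.06. Antigen presentation was higher in 4 of 13 measured members, with a median of 0.69. The class II genes H2-Aa and Cd74 differed by 1.34 and 1.21, and the class I genes Tap1 and Psmb8, which load and cut peptides, by 1.26 and 1.24. Over probe sets 2 of 13 members were higher, with Cd74 (0.79 ± 0.88, n = 14) and Psmb8 (0.83 ± 0.76, n = 7) short of 2-fold.

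Genes that let leukocytes attach and cross were higher in 5 of 19 measured members and lower in 1. The fibronectin receptor subunit Itga5 went from 4.70 to 6.79, the leukocyte integrins Itgam and Itgb2 differed by 1.50 and 1.07, and the endothelial ligand Icam1 by 0.92. The selectin genes Sele and Selp stayed dim at 0.56 and 0.28, and Vcam1 stood at -0.51. Complement and coagulation genes were higher in 7 of 20, with a median of 0.81. C3ar1, the receptor for complement fragment C3a, went from 5.17 to 9.03 (difference 3.86, probe sets 3.90 ± 0.31, n = 6), and the clot-stabilising factor gene F13a1 from 3.74 to 6.96. Plau, the urokinase gene, and its receptor Plaur differed by 1.90 and 1.61. The microglial complement genes C1qa, C1qb and C1qc lay between 0.58 and 0.90, short of 2-fold.

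Genes of the reactive astrocyte programme had the highest median of the glial lists, 3.08, with 17 of 20 measured members higher and none lower. Tgm1, a transglutaminase, went from 3.88 to 8.23 (difference 4.36, probe sets 4.89 ± 2.10, n = 17), Tm4sf1 from 6.39 to 10.19 and Cd109 from 3.13 to 6.67. The sphingosine phosphate receptor S1pr3 differed by 3.24. Among filament genes, Nes went from 3.97 to 6.73 and Vim from 7.94 to 10.53, while Gfap, the best known of them, differed by 0.32 from a sham signal already at 10.93. Several of these genes, among them Timp1, Cd44 and Vim, are also made by macrophages, endothelial cells and fibroblasts, so the list does not assign them to astrocytes in this tissue.

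Genes of resting astrocytes did not share that rise. None of 15 measured members was higher and 3 were lower, with a median of -0.45. The amino acid transporter Slc7a10 went from 8.57 to 6.63 (difference -1.94, probe sets -1.84 ± 0.66, n = 13). The gap junction protein Gja1 differed by -1.24 and the growth factor receptor Fgfr3 by -1.12. Aqp4, the water channel of astrocyte endfeet, and the glutamate transporter Slc1a3 differed by -0.45 and -0.87, short of 2-fold, and glutamine synthetase (Glul) by 0.12. Quantile normalization gave 2 lower members.

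Secreted defence proteins of the acute phase were higher in 9 of 16 measured members and lower in 1. With no filter 9 of 20 were higher. Haptoglobin (Hp), which binds free haemoglobin, went from 3.50 to 8.37 (difference 4.87, probe sets 4.71 ± 2.05, n = 6), and Steap4, a metal reductase, from 2.59 to 6.63. Serpina3n, a serine protease inhibitor, started bright at 9.33 and reached 11.63. Saa3 and Ptx3 differed by 2.56 and 2.93. The member that went the other way was A2m, alpha-2-macroglobulin, from 7.05 to 5.17, a difference of -1.88 (probe sets -1.93 ± 0.68, n = 34). The metallothioneins Mt1, Mt2 and Mt3, already at or above a signal of 9.98 in sham, differed by 0.43, 0.41 and 0.10.

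Genes of resting microglia had the lowest median of all lists measured. Of 13 genes of the homeostatic state 9 were lower and 1 higher, with a median of -1.18. The ADP receptor P2ry12, through which microglia sense nucleotides from damaged cells, went from 7.31 to 5.33 (difference -1.98, probe sets -1.63 ± 1.46, n = 6), and its neighbour P2ry13 from 6.71 to 5.02. Tmem119 went from 5.25 to 3.14, the fractalkine receptor Cx3cr1 from 6.41 to 5.24, the identity factor Sall1 from 6.45 to 5.25, and the survival receptor Csf1r from 7.71 to 6.54. Fcrls was the higher member at 1.29, and Trem2, a lipid receptor of activated microglia, was at -0.31. Under quantile normalization 6 members were 2-fold lower and the median was -0.99. Gpr34, at -1.07, was below the filter level on both arrays. Siglech lay just short of the 2-fold line, with a probe-set median of -1.50 ± 0.84, n = 7.

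**Figure D2:**
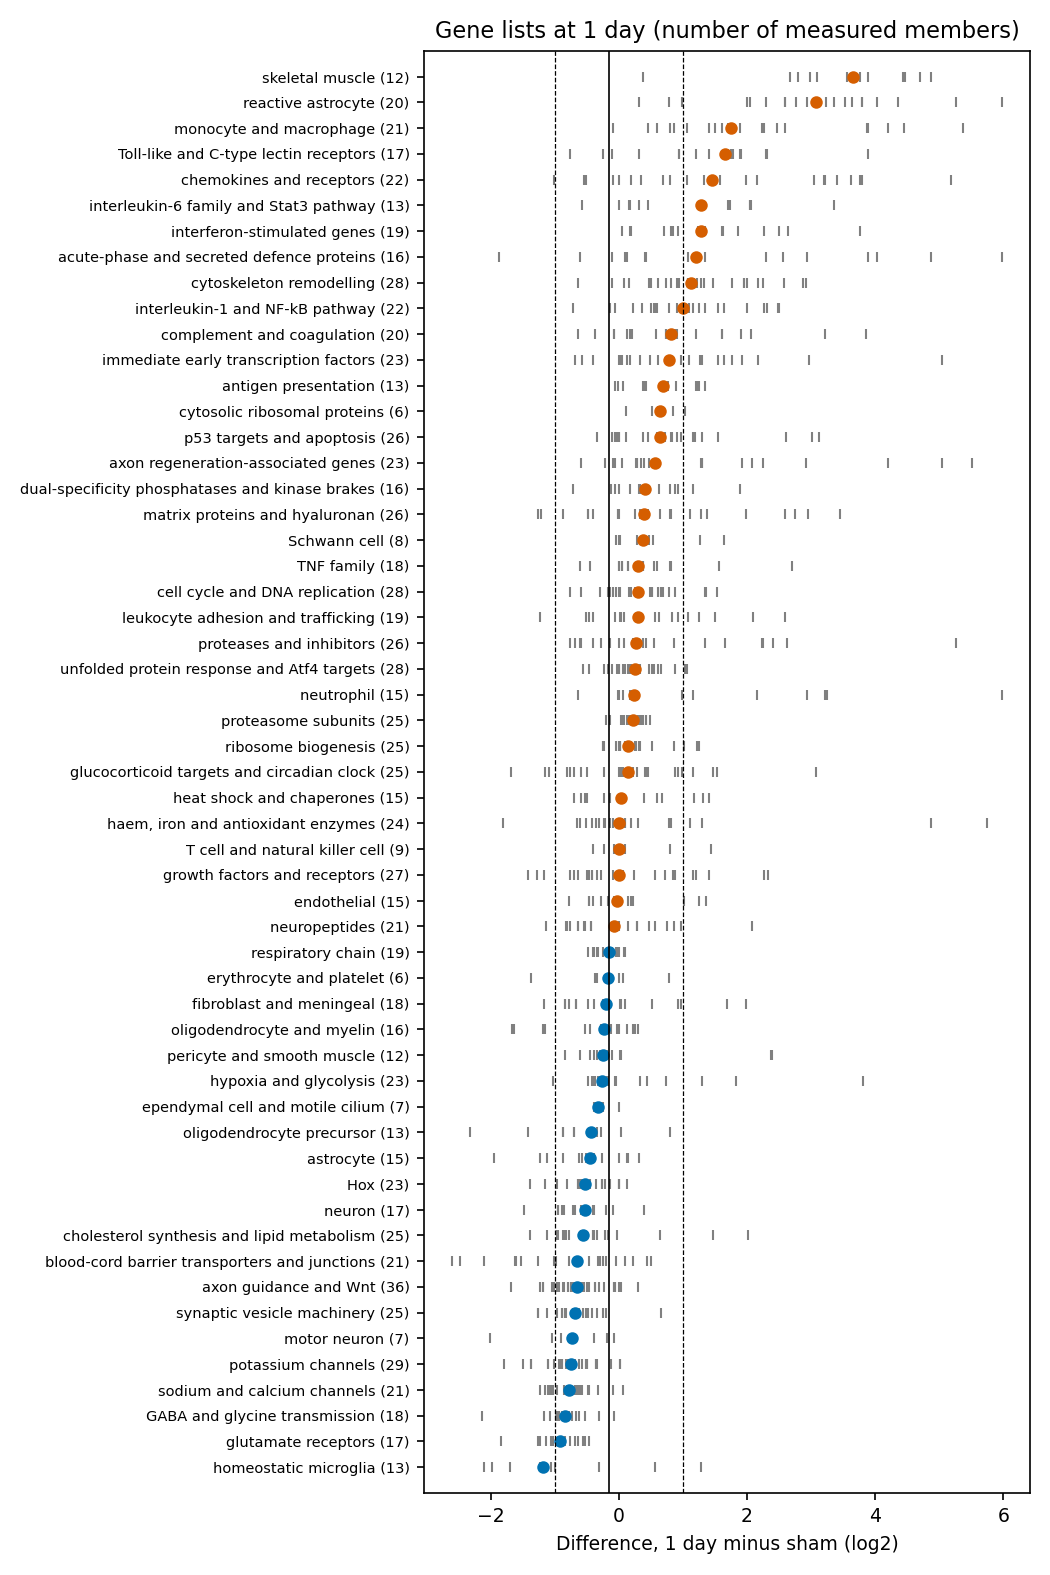
Each row is a gene list with at least 6 measured members (their number in brackets), a grey tick is a member's log2 difference at 1 day minus sham, and the dot is the list's median, orange above and blue below the median of all genes (solid line), with dashed lines at 2-fold. The medians run from 3.66 for skeletal muscle and 3.08 for reactive astrocyte genes down to -1.18 for homeostatic microglia, against -0.15 over all genes.

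Structural myelin genes stayed close to sham while enzymes of myelin lipid synthesis were lower. The oligodendrocyte and myelin list had 4 of 16 measured members lower, none higher, and a median of -0.23. The myelin protein genes Mbp, Mog, Mag and Mobp differed by -0.12, 0.01, -0.20 and 0.22. Fa2h, which makes the hydroxylated fatty acids of myelin lipids, went from 10.46 to 8.82 (difference -1.63, probe sets -1.50 ± 0.19, n = 9), and Ugt8a, which makes galactosylceramide, from 11.24 to 10.06 (difference -1.18, probe sets -1.15 ± 0.11, n = 6). Aspa, which frees acetate from N-acetylaspartate, differed by -1.66, and the receptor Gpr37 by -1.15. All 4 of these also counted as lower after both rescalings.

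Oligodendrocyte precursor genes had a median of -0.43, with 2 of 13 lower. Besides Gpr17, a receptor of precursors about to differentiate, the lower member was Bmp4, at -1.42. The lineage factors Olig1, Olig2 and Sox10 differed by -0.43, -0.42 and -0.34, and the precursor receptor Pdgfra by 0.04. Vcan, also a matrix gene of monocytes, was at 0.80.

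Cholesterol and fatty acid synthesis, which supplies myelin, lay below sham in 22 of 25 measured members, but only 2 were 2-fold lower, and the median was -0.55. The mevalonate pathway enzyme Mvd differed by -1.38 and the sterol exporter Abcg1 by -1.12. Dhcr7 and Elovl6 differed by -0.96 and -0.95. The higher members were coat proteins of lipid droplets, Plin2 from 6.27 to 8.28 and Plin4 from 4.42 to 5.89. Phospholipid transfer protein (Pltp), in no list, went from 8.59 to 6.53, a difference of -2.06 (probe sets -2.09 ± 0.52, n = 15).

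Iron and haem handling was uneven. Of 24 measured genes 4 were higher and 1 was lower, with a median of 0.01. The largest member was Hmox1, which breaks down haem and is a target of the factor Nrf2, from 4.95 to 10.70 (difference 5.75, probe sets 5.43 ± 0.62, n = 9). Besides Hmox1 and Hp, the iron reductase Steap3 and the phagosomal metal transporter Slc11a1 were higher at 1.30 and 1.11. The iron exporter ferroportin (Slc40a1) went down from 5.35 to 3.54 (difference -1.81, probe sets -1.74 ± 0.97, n = 10). The transferrin receptor Tfrc differed by -0.64 and ferritin heavy chain (Fth1) by 0.06. Other Nrf2 targets stayed within 2-fold, Srxn1 at 0.81, Nqo1 at 0.09 and Gclc at -0.14.

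Among stress responses, the p53 and apoptosis list was higher in 7 of 26 measured members, with a median of 0.64. Cdkn1a, the cell cycle inhibitor p21, went from 5.86 to 8.87 (difference 3.02, probe sets 3.30 ± 0.49, n = 4). The stress genes Gadd45b, Gadd45g and Gadd45a differed by 3.12, 2.61 and 1.30, and Ccng1 by 1.19. The p53 targets that trigger cell death, Bbc3 and Pmaip1, stood at -0.07 and -0.11, while Casp8, a caspase that death receptors activate, was higher at 1.55 (1.61 ± 0.24, n = 9 over probe sets). Bak1, Fas and Tnfrsf10b, which also promote cell death, lay above sham at 0.97, 0.82 and 0.60, short of 2-fold.

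Genes of protein-folding stress mostly stayed within 2-fold. The unfolded protein response list had 2 of 28 measured members higher, Ddit3 (CHOP) at 1.07 and Atf4 at 1.04, and a median of 0.25. Over probe sets neither reached 2-fold (0.96 ± 0.49, n = 4 and 0.99 ± 0.18, n = 5), and the list had none higher. The chaperone Hspa5 (BiP) differed by 0.88, and the Atf4 targets Trib3, Chac1 and Asns by 0.00, 0.28 and -0.16. Heat shock genes were higher in 3 of 15, namely Hspa1a at 1.41 and the small heat shock proteins Hspb8 and Hspb6 at 1.31 and 1.17. The latter pair are also made in muscle.

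Hypoxia and glycolysis genes were not shifted as a group, with a median of -0.26 and 3 of 23 higher. The higher members were the vasodilator peptide adrenomedullin (Adm), from 3.08 to 6.90 (difference 3.82, but 1.78 ± 1.48, n = 3 over its probe sets), the lactate exporter Slc16a3 at 1.83 and hexokinase 2 (Hk2) at 1.29. Vegfa, Slc2a1 and Pdk1, other targets of the hypoxia factor Hif1a, differed by -0.42, 0.44 and -0.40. Ndrg1, a hypoxia target that myelinating cells also express, was the lower member at -1.02.

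Genes that respond to glucocorticoids and genes of the daily clock moved on both sides. Pdk4, which spares glucose by blocking pyruvate oxidation, went from 5.32 to 8.40 (difference 3.08, probe sets 3.21 ± 1.00, n = 13). Sgk1 and Fkbp5, direct targets of the glucocorticoid receptor, differed by 1.53 and 1.47. Tsc22d3, another such target, stood at 0.14. Of the clock output factors, Dbp went from 8.70 to 7.02 (difference -1.68, probe sets -1.53 ± 1.09, n = 10), Hlf differed by -1.16 and Tef by -0.69, and the clock genes Per3 and Per1 by -1.09 and 0.93. No label gives the hour at which tissue was taken, so a difference in the hour cannot be told apart from the injury. The list counted 4 higher and 3 lower as deposited, and 7 higher and 1 lower after quantile normalization.

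The cytoskeleton list was higher in 17 of 28 measured members and lower in none, with a median of 1.13. The tubulin gene Tubb6 went from 5.44 to 8.37 (difference 2.92, probe sets 2.77 ± 1.24, n = 5), and the platelet and leukocyte protein gene Plek from 6.31 to 9.17. The membrane-binding annexins Anxa3, Anxa2 and Anxa1 differed by 2.57, 2.25 and 1.95, the actin linkers Ezr and Msn by 1.95 and 1.76. Tropomyosin genes Tpm2, Tpm3 and Tpm4 were at 1.28, 1.47 and 1.33. Tubb4a, a tubulin of oligodendrocytes and neurons, stood at -0.64 and the general tubulin Tubb5 at -0.10. S100 protein genes, which bind calcium, counted 4 higher and 0 lower of 7, with a median of 2.00, and S100a6 went from 5.72 to 7.89.

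Genes linked to axon regrowth in peripheral neurons were higher in 10 of 23 measured members, with a median of 0.56. Sprr1a, a small proline-rich protein induced in injured sensory neurons, went from 3.84 to 9.35, a difference of 5.51, but its few probe sets were split (1.95 ± 2.89, n = 3). Galanin (Gal), a neuropeptide of injured neurons, differed by 2.08. The growth-cone genes themselves were near sham, with Gap43 at 0.39, Basp1 at -0.06, Stmn2 at -0.09 and Stmn4 at -0.58. The higher members Arg1, Jun, Stat3, Anxa2 and Tubb6 are genes of immune or glial cells too.

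In the matrix list 8 of 26 measured members were higher and 2 lower. The adhesive proteins thrombospondin 1 (Thbs1) and tenascin C (Tnc) went from 4.81 to 8.26 and from 5.15 to 8.11. Tgfbi and fibronectin (Fn1) differed by 2.74 and 1.99. Ccn1, a matrix-bound signalling protein in no list, went from 5.03 to 9.07 (difference 4.04, probe sets 4.44 ± 0.94, n = 7). The lower members were link proteins of perineuronal nets, Hapln4 at -1.26 and Hapln1 at -1.21. The chondroitin sulphate proteoglycans that block axons showed no common shift, with Ncan at 0.26, Acan at -0.48, Bcan at -0.88 and Vcan at 0.80. Collagens counted 2 higher and 0 lower of 36, Col12a1 at 1.49 and Col4a1 at 1.28.

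Proteases and their inhibitors were higher in 7 of 26 and lower in none. Adam8, an immune cell sheddase, went from 4.12 to 6.75, and Adamts1, which cuts proteoglycans, from 5.42 to 7.67. The lysosomal proteases Ctsc and Ctsl differed by 2.41 and 1.35, and Mmp19 by 2.24. The matrix metalloproteinases Mmp3, Mmp8, Mmp12 and Mmp13 stayed below the filter level on both arrays.

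Growth factors went both ways, with 5 higher, 3 lower and a median of 0.00 over 27. The EGF-family ligand Hbegf went from 6.89 to 9.21, Igfbp3 from 5.67 to 7.94, and Tgfb1 and Inhba differed by 1.16 and 1.20. The lower members were Bmp4, Fgf9 at -1.28 and Igf2 at -1.16. Outside the list Fgf18 stood at -1.76, and Hhip, an inhibitor of hedgehog ligands, at -2.01. Bdnf and Gdnf, trophic factors for neurons, were dim and at 0.00 and 0.07.

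Division genes mostly stayed within 2-fold. In the cell cycle list 3 of 28 measured members were higher, cyclin D1 (Ccnd1) at 1.53, the replication licensing gene Mcm3 at 1.36 and Uhrf1 at 1.35, and the median was 0.30. The mitotic genes Plk1, Aurkb and Ccnb2 stood at 0.26, 0.20 and 0.02. Mki67 differed by -0.76 at gene level but by 0.72 ± 1.19, n = 4 over its probe sets, with both gene-level signals dim. Ribosome biogenesis had 3 of 25 higher, among them the nucleolar proteins Nop58 at 1.26 and Gnl3 at 1.02. Proteasome subunits had none higher or lower of 25, yet 23 lay above sham and their median was 0.22. Respiratory chain genes also had none past 2-fold, with 17 of 19 below sham and a median of -0.16, next to -0.15 over all genes.

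The list of blood-cord barrier transporters and junctions was lower in 8 of 21 measured members, with a median of -0.64, and 7 were lower after quantile normalization. The drug exporter Abcb1a (P-glycoprotein), at 6.52 in sham, differed by -1.53 (probe sets -1.40 ± 0.97, n = 30), the thiamine transporter Slc19a3 went from 4.79 to 3.18, and Itm2a from 8.01 to 6.41. Glucose and lactate carriers stayed near sham, with Slc2a1 at 0.44 and Slc16a1 at 0.23. So did the lipid transporter Mfsd2a at -0.20. Tight junction genes differed by -0.46 (Cldn5), -0.32 (Ocln) and -0.24 (Tjp1).

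General endothelial genes showed no common shift, with 8 of 15 measured below sham and 6 above. Cdh5, the endothelial cadherin, went from 6.32 to 7.68 (difference 1.36, probe sets 1.19 ± 0.52, n = 12), and Pecam1 and Emcn differed by 1.26 and 1.01. These were the 3 higher of 15 measured, and none was lower. The median was -0.03 as deposited, but above 0 after either rescaling. The angiopoietin receptor Tek stood at -0.78 at gene level and past 2-fold over its probe sets (-1.10 ± 0.49, n = 21). The VEGF receptor Kdr was at -0.03.

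Mural cell genes, of pericytes and vessel smooth muscle, had 2 of 12 measured members higher, Tagln and Des, both at 2.38, and Des is also a gene of skeletal muscle. The other contractile genes of smooth muscle, Acta2, Myh11 and Cnn1, were at -0.84, -0.33 and 0.04, so the contractile genes split. The pericyte markers Pdgfrb and Rgs5 were at -0.38 and -0.60. Fibroblast and meningeal genes counted 2 higher and 1 lower of 18, with the collagen genes Col1a1 and Col1a2 at -0.66 and -0.78. Ependymal genes, of the cells lining the central canal, had none past 2-fold and a median of -0.33.

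Pan-neuronal genes lay below sham in 16 of 17 measured members, but 1 was 2-fold lower, the RNA-binding protein gene Elavl4, from 8.24 to 6.77 (difference -1.48, probe sets -1.46 ± 0.37, n = 11). The median was -0.53, next to -0.15 over all genes. Neurofilament genes Nefl, Nefm and Nefh stood at -0.38, -0.40 and -0.59, and the nuclear marker Rbfox3 (NeuN) at -0.95. Motor neuron genes had a median of -0.73. Of the 7 measured, Chodl, a marker of fast motor neurons, went from 7.04 to 5.04, and the choline transporter Slc5a7 was at -1.04. The acetylcholine-making enzyme Chat was at -0.90, and the early factor Isl2 at -0.08.

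Receptors and channels, through which neurons signal, were read apart from general neuronal genes. All 17 measured glutamate receptor genes lay below sham, and 6 were 2-fold lower, with a median of -0.91. Grm3, a metabotropic receptor that astrocytes also carry, went from 7.47 to 5.63 (difference -1.84, probe sets -2.21 ± 0.67, n = 10). The NMDA receptor subunits Grin2a and Grin2b differed by -1.26 and -1.22, and the AMPA receptor subunits Gria2 and Gria4 by -1.14 and -1.02. Most of these lie close to the 2-fold line, and quantile normalization gave 2 lower and a median of -0.74.

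Genes of inhibitory transmission, by GABA and glycine, were all below sham as well, 18 of 18, with 3 lower and a median of -0.84. Besides the receptor subunit Gabrb2, these were Gabra5 at -1.16 and the glycine receptor subunit Glra2 at -1.07. The GABA-making enzymes went unequally, Gad1 at -0.99 and Gad2 at -0.31. The main adult glycine receptor subunits Glra1 and Glrb were at -0.86 and -0.78.

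Potassium channel genes were lower in 7 of 29 members, around a median of -0.74, and 4 were lower after quantile normalization. Kcnn2, a calcium-activated channel, went from 7.20 to 5.40 (difference -1.80, probe sets -2.08 ± 0.42, n = 11), and Kcnj3, which G proteins open, from 7.90 to 6.40. Kcna2, a channel of the axon membrane next to nodes, differed by -1.10, and Kcnj10, the glial channel that clears potassium, by -0.58. Over every gene whose symbol begins with Kcn there were 0 higher and 11 lower of 54, with a median of -0.62.

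For sodium and calcium channels the count was 7 of 21 lower and the median -0.78. Cacna1e and Scn1a were at -1.23 and -1.15, and Scn8a, the sodium channel of mature nodes, at -1.03. The members just past the line made up most of this count, and 2 were lower after quantile normalization, with a median of -0.62. In the synaptic vesicle list 3 of 25 were lower, Syn3, Pclo and Sv2b, at -1.26, -1.26 and -1.13. Snap25 and Vamp2, of the fusion machinery, differed by -0.20 and -0.48. Syt4, a synaptotagmin that activity induces, was the only measured member above sham, at 0.66.

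Neuropeptide genes showed no common shift. Of 21 measured, Gal was higher and Tac2 lower at -1.13. Substance P precursor Tac1, dynorphin precursor Pdyn and Npy differed by 0.98, 0.87 and 0.56, and somatostatin (Sst) by -0.63. The median was -0.08 as deposited and above 0 after either rescaling.

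Genes of axon guidance and Wnt signalling lay below sham in 33 of 36 measured members, with 6 lower, 2 after quantile normalization, and a median of -0.65. Netrin G1 (Ntng1) went from 6.81 to 5.13. The ephrin receptors Epha4 and Ephb1 and the netrin receptor Dcc differed by -1.22, -1.18 and -1.18. Ntn1, the netrin ligand itself, stood at -0.06, and the repellent Sema3a at -0.74. Hox genes, which mark position along the cord, had a median of -0.53. Hoxc6 and Hoxb8 were lower at -1.38 and -1.16, while Hoxc9 and Hoxa10 stood at -0.26 and -0.13. With 1 pool per group, a small difference in the level of the segment taken cannot be told apart from the injury.

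Skeletal muscle genes were above sham in all 12 measured members and higher in 11, with a median of 3.66 and a summed linear signal of 387 in sham and 3833 at 1 day. The fast myosin light chain Myl1 went from 3.13 to 7.99, skeletal actin (Acta1) from 5.25 to 9.95 (difference 4.69, probe sets 4.91 ± 1.73, n = 9), and the troponin Tnnc2 from 4.22 to 8.66. The exception was Pvalb, which inhibitory neurons also make, at 0.38. How far RNA of muscle from around the cord entered the 1 day pool was not tested. Genes that muscle shares with the lists above, Des, Hspb6, Hspb8, Tpm2, Hk2 and Pdk4 among them, were higher beside it, and the part of muscle RNA in their values was not tested either. Schwann cell genes, of peripheral nerve, had 2 of 8 higher, Gldn at 1.65 and Egr2 at 1.27, and a summed signal of 1659 in sham and 2327 at 1 day, most of it from the bright gene Pmp22, which encodes a peripheral myelin protein and went from 10.42 to 10.89. Of blood cell genes none of 6 measured was higher, and the red cell enzyme Alas2 went from 7.64 to 6.28. No gene of the list that tells the sexes apart was kept as a single-symbol gene.

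Wide gene families, taken by symbol, set these lists against the rest of the array. Solute carriers counted 6 higher and 20 lower of 238, and cadherins and protocadherins 1 higher and 6 lower of 40, with Cdh11 at -1.72 and Cdh20 at -1.50. ATP-binding cassette transporters counted 0 higher and 5 lower of 30, Abca9 at -1.37 beside Abcb1a. Interleukins and their receptors counted 10 higher and 0 lower of 34. Among families of housekeeping genes, mitochondrial ribosomal proteins counted 0 higher and 1 lower of 67, complex I subunits 0 higher and 0 lower of 33, and tRNA synthetases 0 higher and 0 lower of 13. Proteasome subunits counted 1 higher and 0 lower of 33 and eukaryotic initiation factors 1 higher and 0 lower of 35. Cytosolic ribosomal proteins counted 3 higher and 0 lower of 22, with a median of 0.04. The list of such genes, with only 6 measured, read differently. All 6 lay above sham, 1 was higher, and the median was 0.65. Zinc finger genes named Zfp counted 3 higher and 3 lower of 186. Olfactory receptor genes, for which no role in the cord is assumed here, counted 10 higher and 6 lower of 69, Olfr1216 from 1.60 to 4.36 among them. Their higher and lower shares, 14.5% and 8.70%, were both above those of all genes. Olfr1216 was below the filter level in sham and was kept only because another array was brighter. The filter favours such higher members, and the shares of this family without it were not computed.

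Several further genes of large difference belong to no list. Slc15a2, a peptide transporter, and Slc6a20a, an amino acid transporter, differed by -1.90 and -1.86. Egfl6, a secreted matrix protein gene, was at -1.90, B3galt2, a galactosyltransferase gene, at -1.90, and Syt10, a synaptotagmin gene, at -1.84. The enzyme gene Gpd1 and the proteoglycan gene Sdc4 were higher with both signals at or above 8. Gpd1 went from 8.85 to 10.47, Sdc4 from 8.20 to 9.87, and the leukocyte proteoglycan gene Srgn from 8.52 to 10.58. Among bright genes that were lower, Fabp7, a fatty acid binding protein of immature glia, went from 10.36 to 9.15 (difference -1.20, probe sets -1.17 ± 0.27, n = 5), and the bicarbonate transporter Slc4a4 of astrocytes from 9.69 to 8.60. Of the long noncoding RNAs listed, 5 were measured. H19 went from 4.42 to 7.58, Snhg5 differed by 1.98 and Gas5 by 0.83, Tug1 had nearly the same signal on both arrays, and Snhg11 was at -1.06.

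Some genes had their extreme on the 1 day array among all 5 groups, and they are set side by side here as levels, the injured groups always in the order 1 day, 3 days, 1 week, 3 weeks. P2ry12 stood at 7.31 in sham and at 5.33, 7.34, 7.36 and 7.67 in the injured groups, and Csf1r at 7.71 in sham and at 6.54, 8.55, 9.42 and 9.35 in the injured groups. Each was lowest at 1 day, and Csf1r was above its sham signal on all 3 later arrays. The leukocyte inhibitory receptor Lair1 was lowest too, at 5.27 in sham and at 3.69, 5.42, 6.33 and 5.87 in the injured groups, though its probe sets differed from sham by less (-0.49 ± 0.63, n = 6 against -1.58). A2m stood at 7.05 in sham and at 5.17, 6.71, 8.22 and 9.42 in the injured groups, and its 3 week signal was the highest of the 5. The 1 day signal of Fabp7 minus that of the lowest other array was -1.20.

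At the high end, Ptx3, a soluble pattern receptor, stood at 3.89 in sham and at 6.82, 4.44, 4.44 and 4.29 in the injured groups. Hp stood at 3.50 in sham and at 8.37, 6.08, 5.79 and 5.68 in the injured groups, above sham on every later array but highest at 1 day. Among muscle genes, Atp2a1, the calcium pump of fast fibres, stood at 4.07 in sham and at 8.53, 6.69, 4.44 and 4.64 in the injured groups, and Casq1 and Eno3 were also highest at 1 day, by 1.72 and 1.85 over the next array. Each time has 1 pool of different animals, so these are 5 readings and not a course followed in the same mice.

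**Figure D3:**
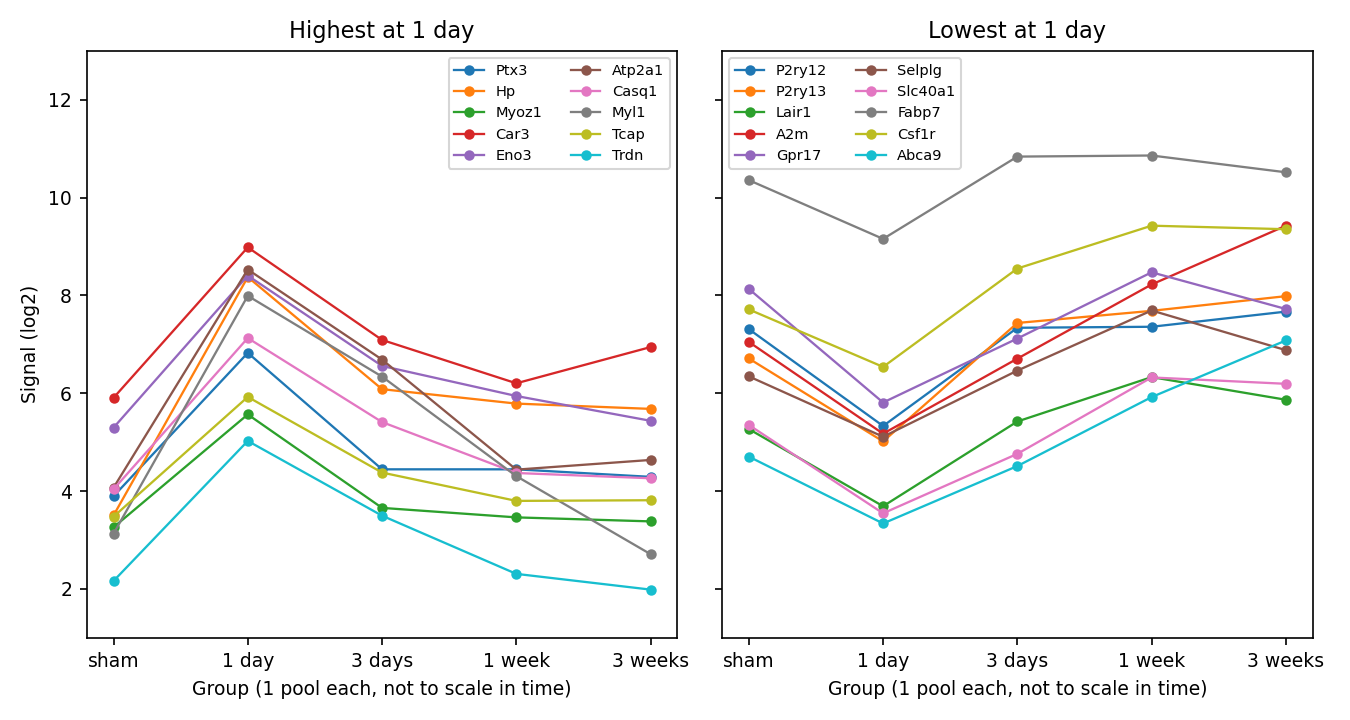
Log2 signals on the 5 gene-level arrays for genes whose 1 day signal lay farthest above or below the other 4 arrays, 1 line per gene, with 1 pool of 3 mice at each point. P2ry12 dips from 7.31 in sham to 5.33 at 1 day and stands at 7.34 at 3 days, and Hp goes from 3.50 to 8.37 and then 6.08.

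The exon-level arrays gave a second summary of groups with the same labels. Of the 11280 genes 11055 had at least 1 probe set past the filter and 10043 had at least 4. Among higher genes, 384 had at least 4 probe sets, and in 375 of those at least 75% of the probe sets moved the same way. Among lower genes the numbers were 402 and 397. The median over probe sets was itself at least 2-fold higher in 338 higher genes and 2-fold lower in 312 lower genes. Probe sets of higher genes spread more, with a median SD of 0.77, than those of lower genes (0.58) or of genes called neither (0.44). Called from the probe-set medians alone, 461 of 11055 genes (4.17%) were higher and 628 (5.68%) lower.

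A few genes went apart between the summaries. Scoc differed by 2.08 at gene level but by -0.34 ± 1.13, n = 5 over its probe sets, which ran from -0.57 to 2.08, and Lysmd1 by 1.48 against -0.22 ± 1.07, n = 4, from -1.07 to 1.48. In both, the gene-level value equalled that of the single highest probe set, to the digits shown. Agreement between the summaries is therefore not taken as independent support for any gene. Romo1 was -1.82 at gene level and -0.19 ± 0.33, n = 6 over probe sets. Among genes named above, the probe sets of Tlr2 (0.37 ± 0.73, n = 3), Mcm3 (0.60 ± 0.92, n = 14), Uhrf1 (0.71 ± 1.22, n = 14) and Adam8 (1.59 ± 1.56, n = 25) also gave smaller differences than the gene level, and those of Hspa1a (3.17 ± 2.49, n = 2) a larger one. Trdn, a muscle gene, was larger over probe sets (4.57 ± 2.25, n = 10) than at gene level (2.86).

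**Figure D4:**
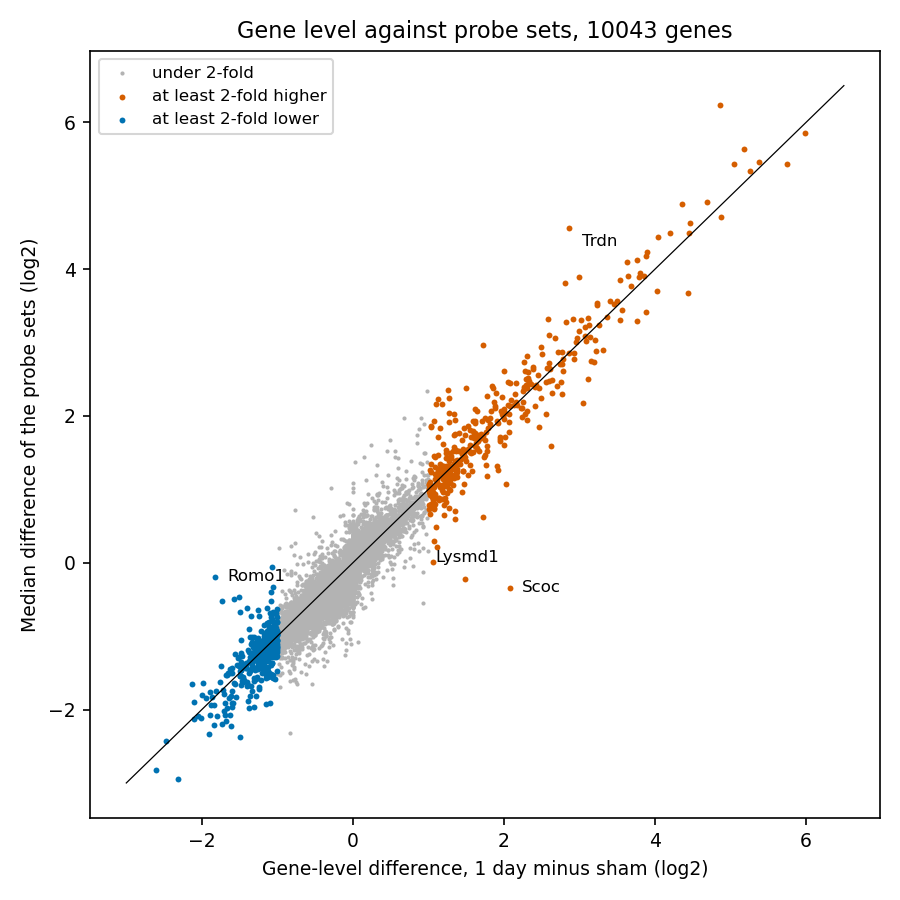
Each point is a gene with at least 4 probe sets, placed by its gene-level log2 difference at 1 day minus sham and by the median difference of its probe sets on the exon-level arrays, with the line of equality. Most genes lie along the line, and Scoc, Lysmd1, Romo1 and Trdn, labelled, lie away from it.

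Identical values set a limit on the smaller differences. On the gene-level arrays 771 genes (6.84%) had the same signal to 6 decimals in sham and at 1 day, against 465 probe sets (0.203%) on the exon-level arrays. The probe-set medians of those genes ran from -0.75 to 1.09, so a gene-level difference of 0 is not a measured equality. Mmp9 and Bdnf, named above, and Sox9 and Socs1 are among the genes at 0.00 at gene level. No label or file names the step that makes signals identical. Without these genes the counts stayed at 427 and 461, and the median of all genes was -0.19.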

How the data were processed

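The deposited values were log2 signals of Affymetrix mouse exon arrays, summarised per transcript cluster (gene level) and per probe set (exon level) by the authors. GCOS and the build mm8 are named per the submitters' processing notes, with no version or role. Background correction, normalization and probe summary are steps for which the labels and files give no method. Base 2 follows from the values: the highest would be 9097 on the linear scale in base 2 and 514577 in base e, past the 16-bit scanner limit of 65535. RNA was made from frozen tissue with Trizol and RNeasy, amplified and labelled with Affymetrix kits, per the labels' protocols.

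Symbols came from GEO's platform annotation, and 14941 of 14996 single-symbol clusters were updated by gene ID through RefSeq (GRCm38.p6), which also gave the promoters. A cluster was kept where at least 1 of the 5 arrays reached the 40th percentile of all values (3.79 at gene level, 4.85 at exon level). Where a symbol had several clusters, that of highest mean signal was used. Probe sets of a gene give a median and SD over probes. With 1 pool per group no test was made. Lists (59) and symbol families (36) are described by counts at 2-fold, the size rule of the submitters' design text, and by medians.

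The comparison, lists, families and motifs were chosen with earlier results of these data known. Named genes were the 30 largest differences each way with at least 4 probe sets of which 75% moved the same way, 15 each way with both signals at or above 8, up to 4 from each end of a list (all members of lists of 12 or fewer), 2 from each end of a family, 10 each way with an extreme at 1 day, 6 with the largest gap between summaries and 3 on each side of the 2-fold line. Other members named within a list were picked after their values were seen. The script was tested on simulated data. Python 3.11.15, numpy 2.4.6, pandas 2.3.3 and matplotlib 3.10.9 were used. Alternatives were array centring, quantile normalization, other filters, the mean over clusters, exon-level medians, a 4-fold rule and, added after seeing the data, leaving out genes of identical signals.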

Additional observations from a re-analysis of the deposited data

Results flagged for a closer look

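Transcript clusters with no gene symbol were left out of every comparison above. Of 3273 such clusters that passed the filter, 169 were at least 2-fold higher and 252 at least 2-fold lower at 1 day. Among the 11280 genes with a single symbol the counts were 427 (3.79%) and 461 (4.09%). No control array gives the number that would pass 2-fold between a pair of sham pools.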

How the results depend on the processing

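No paired analysis was possible because each group had 1 pool and no replicate number, and for the same reason no replicate could be left out. Against 427 higher and 461 lower genes and a median of -0.15, a 4-fold rule gave 147 and 11. Quantile normalization gave 240 lower genes and a median of -0.013. Under the other alternatives run, both counts stayed within 1.5 times. Of 463 medians recomputed for 58 lists 459 moved by less than the spread between probe sets and 4 by more. Of these, 9 changed sign, in 4 lists: the endothelial, mast cell and neuropeptide medians lay above 0 after both rescalings, the neuropeptide median also over exon-level probe sets, and the endothelial and blood cell medians under the 60th percentile filter. Of 4541 values for 596 genes, 67 moved by at least the spread between probe sets without counting as reversed. A reversal was counted only where a gene at least 2-fold changed took the other sign, and there were 3. Jph2 was 0.17 when both signals had to pass the filter, which leaves another cluster of that symbol. Lysmd1 and Scoc were -0.22 and -0.34 over exon-level probe sets, for which the cause was not tested. Changes of sign in smaller differences, such as that of Mki67 over its probe sets, were not counted apart. Dim signals limit all folds that start near the filter level.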
